A study of Mus musculus with 10 samples.

Results

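Monoamine neurons are the few cells of the brain that make dopamine, noradrenaline or serotonin, and a set of 10 genes that mark them was followed here in the newborn mouse brain. The genes were chosen by name for their roles in the synthesis (*Th*, *Tph2*, *Ddc*, *Dbh*), transport (*Slc6a2*, *Slc6a3*, *Slc6a4*, *Slc18a2*) and identity (*Fev*, *Pitx3*) of these neurons. All 10 were present among the 18444 genes of the table. Their cell bodies lie mainly in small nuclei of the midbrain and hindbrain, while their axons reach most of the brain. Tyrosine hydroxylase and tryptophan hydroxylase start the catecholamine and serotonin pathways, aromatic amino acid decarboxylase serves both, a vesicular transporter loads the products, and a plasma membrane transporter particular to each amine takes it back up. Serotonin signalling is active early in brain development, and some glutamatergic neurons that make no serotonin, thalamic neurons among them, carry its transporter for a short period around birth.

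The data are poly-A RNA sequencing libraries of the whole brain at postnatal day 3, 1 per mouse. The 10 mice were male and of the C57BL/6N strain: 5 carried *Arid1b* in the heterozygous state (HT), 5 were wild-type (WT), and the labels name no drug. *Arid1b* encodes a subunit of the BAF chromatin remodelling complex, and the HT mice carry 1 allele edited with CRISPR/Cas9 at exon 5, present from the germline in every cell type. Values are normalised read counts, that is, estimated reads divided by a size factor for each library, and errors are SD over 5 mice unless stated otherwise.

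The libraries held between 27.2 and 29.03 M normalised counts (M, 1000000). *Arid1b* was 2372, 2230.1, 2253, 1505 and 2142 in HT 1 to HT 5 and 3386, 3155, 3597, 3429 and 3108 in WT 1 to WT 5, so that every HT library was below every WT library. On average HT held 63.0% of the WT level, with a log2 fold change of -0.68 ± 0.11 (SE), a limma adjusted p of 0.390 and an exact permutation p of 0.00794. The adjusted call depended on HT 4 and on the length and GC trend. *Arid1b* passed the threshold of 0.05 in 4 of 24 alternative fits. These were the fits without HT 4, with sample weights, and with the length and GC trend removed with or without HT 4. Over all fits the limma adjusted p values of *Arid1b* ran from 2.27e-06 to 1.00. The library HT 4 stood apart from the others, with a score of 53.9 on the first principal component against -23.4 to 9.81, and it held the highest value of the 10 libraries for 7 of the 10 monoamine genes, against 24.7% of all genes tested. Results that rest on HT 4 are therefore given with and without it.

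Across the 9 monoamine genes that reached the minimum mean of 10, none passed the threshold of an adjusted p of 0.05 for the difference between genotypes, as was so for 0% of the 17020 genes tested. The limma test gave an unadjusted p under 0.05 to 2 of the 9, *Tph2* and *Slc6a4*, both serotonergic and both higher in HT; among all genes tested 1.47% had such a p and were higher in HT and 1.93% were lower. The other 7 genes had unadjusted p values from 0.104 to 0.649. *Pitx3* was below the minimum mean and was not tested.

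**Figure D1:**
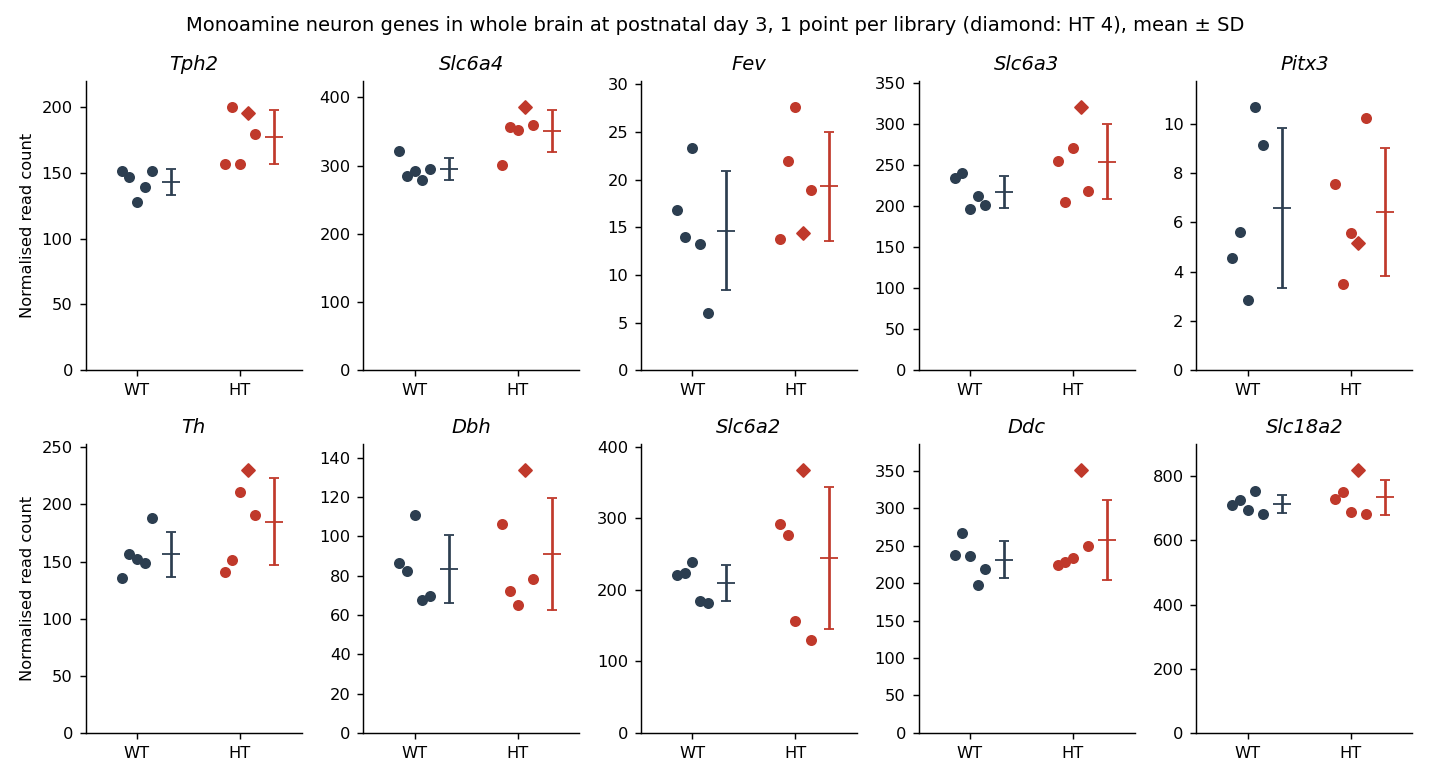
Normalised read counts (vertical axes, from 0) of the 10 monoamine genes in the 5 WT (dark) and 5 HT (red) libraries, 1 point per mouse, with HT 4 drawn as a diamond and the group mean ± SD beside the points. *Tph2* is the panel in which no HT point is as low as a WT point, and HT 4 is the top point of 7 panels.

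The serotonin genes gave the clearest genotype difference, although it did not pass the adjusted threshold. *Tph2* (GRCm38 chromosome 10, 115078641 to 115185022, minus strand), which encodes the neuronal enzyme that starts serotonin synthesis, had normalised read counts of 156, 199.7, 157, 195 and 179 in HT 1 to HT 5. Its WT counts were 151, 147, 128, 139 and 152. The groups did not overlap, as HT 1 and HT 3, the lowest of the HT libraries, lay just above WT 5, the highest of the WT libraries. Such a separation, with HT above WT, was found for 1 of the 9 monoamine genes and for 0.282% of all genes tested. The means were 177 ± 20.6 in HT and 143 ± 9.86 in WT (n = 5 each). The log2 fold change was 0.30 ± 0.10 (SE), or 1.23-fold with a 95% interval from 1.05 to 1.44. The limma p was 0.0129 before and 1.00 after adjustment, and the two-sided exact permutation test gave 0.00794, the lowest p possible with groups of 5.

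*Slc6a4* (chromosome 11, 76998603 to 77032340, plus strand) encodes the serotonin transporter, the target of fluoxetine. Its normalised read counts were 300.3, 357, 352, 385 and 359.9 in HT 1 to HT 5 and 322, 285, 291, 279 and 295 in WT 1 to WT 5. HT 2 to HT 5 lay above every WT library, while HT 1 fell between WT 5 and WT 1, so the groups overlapped through a single pair of libraries. The means were 351 ± 31.05 and 294 ± 16.4 (n = 5 each), a log2 fold change of 0.25 ± 0.081 (SE) and 1.19-fold with a 95% interval from 1.05 to 1.34. The limma p was 0.00929 unadjusted and 1.00 adjusted, and the exact permutation p was 0.0159. Reads on the opposite strand could belong to the overlapping gene *Gm12343*, and whether the estimates kept the strands apart was not given in the sources used here.

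Both differences kept their direction and an unadjusted p under 0.05 in each of the 24 alternative fits, and the adjusted p stayed above the threshold in all of them. The log2 fold change of *Tph2* ranged from 0.26 to 0.35, with adjusted p values from 0.555 to 1.00, and that of *Slc6a4* from 0.21 to 0.30, with adjusted p values from 0.516 to 1.00. Without HT 4, the log2 fold changes were 0.27 for *Tph2* and 0.21 for *Slc6a4*, with unadjusted limma p values of 0.0303 and 0.0210. In that fit 4.69% of all genes tested were higher in HT at an unadjusted p under 0.05.

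*Fev* (chromosome 1, 74881509 to 74885419, minus strand), an ETS transcription factor also known as Pet1 that maintains serotonergic identity, was the third serotonergic gene. It was low, with normalised read counts of 13.7, 22.0, 27.6, 14.4 and 18.9 in HT 1 to HT 5 and 16.8, 14.0, 23.3, 13.2 and 6.01 in WT 1 to WT 5. The groups overlapped over most of their range, with HT 3 highest and WT 5 lowest. Means were 19.3 ± 5.73 and 14.7 ± 6.25 (n = 5 each), and the log2 fold change of 0.44 ± 0.33 (SE) had a limma p of 0.212 and an exact permutation p of 0.238. It was 0.18 without WT 5 and 0.62 without WT 3. Its 95% interval, from 0.821-fold to 2.24-fold, contains the size of the differences seen for *Tph2* and *Slc6a4* as well as no difference.

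In whole tissue, fewer cells of a type and less RNA per cell cannot be told apart, and the same holds for more cells and more RNA per cell. Levels of regional markers were therefore set beside the serotonin genes. The summed level of 10 thalamic markers was 14783 to 16019 in HT and 13918 to 14761 in WT, so the groups did not overlap, in the same direction as *Tph2*. Of these 10 markers 8 were higher in HT, against 46.4% of all genes tested. An unadjusted limma p under 0.05 was found for 3, of which 2 were higher and 1 lower (1.47% and 1.93% of all genes tested). *Slc17a6*, the vesicular glutamate transporter of the thalamus and of many brainstem neurons, had 4694 ± 189 in HT and 4236 ± 70.7 in WT. It was the only 1 of the 10 markers that did not overlap between groups, against 0.282% of all genes tested with HT above WT. *Slc17a6* is a large part of the summed level, and the sum without it was not calculated. The separation of the sum can therefore not be read apart from this gene. *Lhx9* was also higher (log2 fold change 0.13 ± 0.055, SE) and *Prkcd* lower (-0.17 ± 0.058, SE). The summed level of 12 *Hox* genes of hindbrain and more caudal tissue varied widely, from 169.9 to 2042 in HT and from 59.0 to 997 in WT. It was highest in HT 5 and HT 3 and lowest in WT 2. With the log2 *Hox* level as a covariate, an alternative added after the data were seen, *Tph2* and *Slc6a4* kept an unadjusted p under 0.05. The *Hox* level does not measure the amount of serotonergic tissue in a library, and the part of that amount was not tested. The part of the thalamic marker difference in the *Tph2* and *Slc6a4* results was not tested either.

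The promoters of the 3 serotonergic genes are shown because these genes are described together above. Each run is the 250 bases upstream of the RefSeq start site (GRCm38.p6), written 5′ to 3′ on the strand of the gene, and capitals mark matches on either strand to 3 kinds of word. These were TATAAA, the core promoter element; AGATAA and also TGATAA, read by factors such as Gata2 and Gata3; and GGAAGT and also GGAAAT, read by ETS factors such as Fev itself. The regions are chr10:115185023-115185272 for *Tph2*, chr11:76998347-76998596 for *Slc6a4* and chr1:74885409-74885658 for *Fev*.
Tph2: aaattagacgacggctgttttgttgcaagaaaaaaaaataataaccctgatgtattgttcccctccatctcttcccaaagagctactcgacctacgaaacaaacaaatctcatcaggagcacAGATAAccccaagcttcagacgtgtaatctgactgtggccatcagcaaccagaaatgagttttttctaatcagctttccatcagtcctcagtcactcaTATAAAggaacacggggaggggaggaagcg
Slc6a4: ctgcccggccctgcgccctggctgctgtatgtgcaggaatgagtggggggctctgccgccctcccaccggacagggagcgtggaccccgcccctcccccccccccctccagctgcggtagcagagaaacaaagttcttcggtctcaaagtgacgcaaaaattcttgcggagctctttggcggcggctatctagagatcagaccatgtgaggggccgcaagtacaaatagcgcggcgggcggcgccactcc
Fev: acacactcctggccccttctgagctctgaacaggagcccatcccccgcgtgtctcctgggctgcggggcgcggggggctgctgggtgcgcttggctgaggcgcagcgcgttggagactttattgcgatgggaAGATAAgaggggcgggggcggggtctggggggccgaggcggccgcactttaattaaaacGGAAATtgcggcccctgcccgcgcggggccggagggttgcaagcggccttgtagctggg
The *Tph2* window held TATAAA at position -30 and AGATAA at position -128 from the start site. The *Fev* window held GGAAAT at -59 and AGATAA at -118, and none of these words was found in the *Slc6a4* window. Other words were not searched for, so the *Slc6a4* window cannot be said to lack sites for these factors. Among 27025 mouse promoter windows of the same length, 13% held the first, 17% a Gata word and 32.3% an ETS word, so that the matches are common and describe the sequence only. Promoter sequence was at hand for 9 of the 10 genes, the exception being *Slc6a2*.

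**Figure D2:**
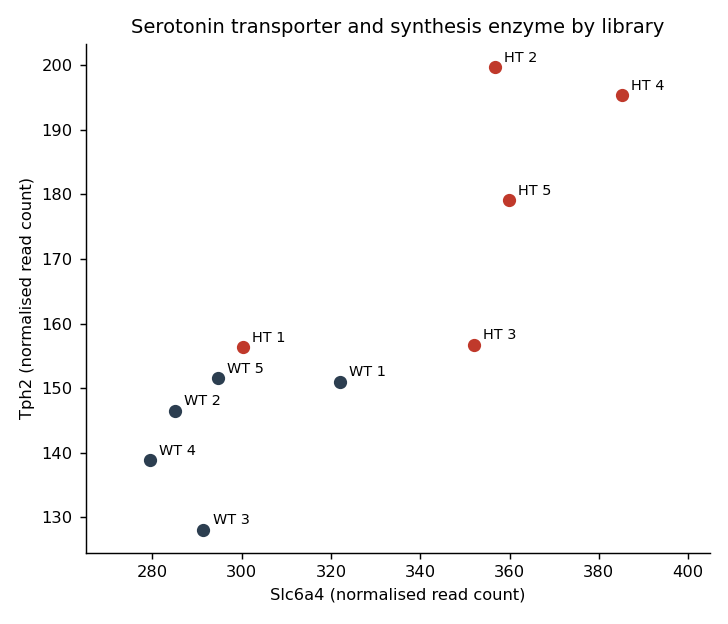
*Tph2* (vertical axis) against *Slc6a4* (horizontal axis), both in normalised read counts, 1 point per library (HT red, WT dark; axes do not start at 0). The libraries HT 2, HT 4 and HT 5 are high for both genes, and HT 1 lies beside the WT libraries.

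*Tph2* and *Slc6a4* also varied together between mice. Over the 10 libraries Pearson r of the log2 values was 0.86 (permutation p = 8.5e-04) and Spearman rho 0.89 (permutation p = 0.0012). Of the 45 pairs among the 10 genes this was the only one with an adjusted p under 0.05 for r (0.0383), and the adjusted p for rho was 0.0540. The r was 0.80 without HT 4, 0.76 without the 2 libraries farthest from the median of *Tph2* (HT 2 and HT 4), and 0.64 with the group means taken out. The genotypes differ in both genes, so part of the pooled value is the difference between groups, and 5 libraries are too few for a value within each. Among the 17019 other genes, *Slc6a4* ranked 16 by its correlation with *Tph2*, and *Tph2* ranked 34 by its correlation with *Slc6a4*. Without HT 4 these ranks were 60 and 111. The genes most like *Tph2* were *Trbc2*, *Rftn1* and *Slc45a1* (r = 0.93, 0.91 and 0.90), and those most like *Slc6a4* were *Kcnc4*, *Nppc* and *Ndufaf5* (r = 0.93, 0.92 and 0.91). With 10 libraries and so many genes, correlations of this size are given as a description.

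Of the dopamine genes, *Th* and *Slc6a3* had higher means in HT, but the groups overlapped. *Th* (chromosome 7, 142892752 to 142931128, minus strand) encodes tyrosine hydroxylase, the first enzyme of all catecholamine synthesis. It had normalised read counts of 141, 152, 211, 230.1 and 190.5 in HT 1 to HT 5 and 136, 156, 153, 149 and 188 in WT 1 to WT 5. HT 3, HT 4 and HT 5 lay above every WT library, and HT 1 and HT 2 lay among the WT libraries. The means were 185 ± 38.0 and 156 ± 19.4 (n = 5 each), with a log2 fold change of 0.22 ± 0.14 (SE), a limma p of 0.146 and an exact permutation p of 0.175. Without HT 4 the log2 fold change was 0.14. Olfactory bulb interneurons also make *Th*, and the summed level of 10 olfactory bulb markers was highest in HT 3, at 6345, with the other HT libraries between 4220.0 and 5556 and the WT libraries between 4461 and 5656; its part in the *Th* values was not tested.

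*Slc6a3* (chromosome 13, 73536747 to 73578672, plus strand), the dopamine transporter and a marker of midbrain dopamine neurons, had 255, 205, 271, 321 and 219 in HT 1 to HT 5 and 234, 241, 197, 213 and 201 in WT 1 to WT 5. HT 1, HT 3 and HT 4 exceeded every WT library. The means were 254 ± 45.7 and 217 ± 19.5 (n = 5 each), a log2 fold change of 0.21 ± 0.12 (SE) with a limma p of 0.104 and an exact permutation p of 0.135. Without HT 4 it was 0.12. *Th* and *Slc6a3* each reached an unadjusted p under 0.05 in 1 of the 24 alternative fits, *Th* without HT 1 (a limma p of 0.0424) and *Slc6a3* without HT 2 (a limma p of 0.0339). *Pitx3* (chromosome 19, 46135685 to 46148326, minus strand), a homeodomain factor of midbrain dopamine neurons, was near the floor of the table. Its counts were 3.51 to 10.3 in HT and 2.87 to 10.7 in WT, with means of 6.42 ± 2.59 and 6.58 ± 3.25 (n = 5 each). The difference was not tested in the main fit, as *Pitx3* was below the minimum mean of 10.

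The noradrenaline genes had no clear difference of means, and *Slc6a2* had the widest spread in HT. Its log2 SD was 0.64 in HT and 0.18 in WT, and that of *Dbh* was 0.42 and 0.28. The log2 SD was also larger in HT for *Th*, *Ddc*, *Slc6a3*, *Tph2*, *Slc6a4* and *Slc18a2*, and smaller in HT for *Fev* and *Pitx3*. All of these HT values include HT 4, the library that stood apart. The SD without HT 4 and the share over all genes tested were not calculated. *Slc6a2* (chromosome 8, 92960079 to 93001667, plus strand), the noradrenaline transporter, had 291, 277, 156, 367 and 129.6 in HT 1 to HT 5 and 221, 223, 239, 184 and 181 in WT 1 to WT 5. HT 1, HT 2 and HT 4 lay above every WT library and HT 3 and HT 5 below every WT library, so that the WT range fell inside the gap between them. The mean was 244 ± 99.2 in HT and 209.8 ± 25.6 in WT (n = 5 each), with a log2 fold change of 0.12 ± 0.25 (SE), a limma p of 0.635 and an exact permutation p of 0.698. A test of the difference in spread was not run. HT 3 and HT 5 were also the libraries with the highest summed *Hox* level (1722 and 2042, against 169.9, 208 and 556 in HT 2, HT 1 and HT 4), and its part in the spread of *Slc6a2* was not tested. With the log2 *Hox* level as a covariate the log2 fold change of *Slc6a2* was 0.21, with a limma p of 0.318.

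*Dbh* (chromosome 2, 27165233 to 27183200, plus strand) encodes dopamine beta-hydroxylase, which converts dopamine to noradrenaline. It had 106, 72.4, 65.1, 134 and 78.1 in HT 1 to HT 5 and 86.7, 82.5, 111, 67.8 and 69.6 in WT 1 to WT 5. HT 4 was the highest and HT 3 the lowest of the 10 libraries, and the other HT libraries lay within the WT range. Means were 91.1 ± 28.5 and 83.5 ± 17.3 (n = 5 each), with a log2 fold change of 0.096 ± 0.21 (SE) and a limma p of 0.649. *Dbh*, *Th* and *Slc6a2* are also made by sympathetic neurons, and the summed level of the 6 measured markers of peripheral ganglia was 1314 to 1562 in HT and 1136 to 1415 in WT. Of the markers in that list, *Hand1* and *Hand2* were not among the genes of the table.

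For the genes shared by all monoamine neurons, the difference between genotypes was within the spread between mice. *Ddc* (chromosome 11, 11814101 to 11898144, minus strand), the decarboxylase that makes dopamine and serotonin from their precursors, had 225, 229, 234, 351 and 250.2 in HT 1 to HT 5 and 238, 266, 236, 198 and 219 in WT 1 to WT 5. Only HT 4 lay outside the WT range. The means were 258 ± 53.1 and 232 ± 25.3 (n = 5 each), with a log2 fold change of 0.14 ± 0.13 (SE; exact permutation p = 0.413), which was 0.023 without HT 4. *Slc18a2* (chromosome 19, 59260896 to 59296012, plus strand), the vesicular monoamine transporter VMAT2, had 729, 751, 688, 819 and 682 in HT 1 to HT 5 and 711, 727, 695, 754 and 682 in WT 1 to WT 5. Its means of 734 ± 55.4 and 714 ± 28.2 (n = 5 each) gave a log2 fold change of 0.038 ± 0.063 (SE; exact permutation p = 0.548). The 95% interval from 0.934-fold to 1.13-fold was the narrowest among the 9 genes. Genes on the opposite strand overlap *Ddc* (*1700042O10Rik*) and *Slc18a2* (*Gm29261*), as well as *Pitx3* (*Elovl3*), and 1.62% of the 31-base words of *Ddc* and 1.31% of those of *Slc6a2* occur in transcripts of another gene, against 0% for the other 8.

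**Figure D3:**
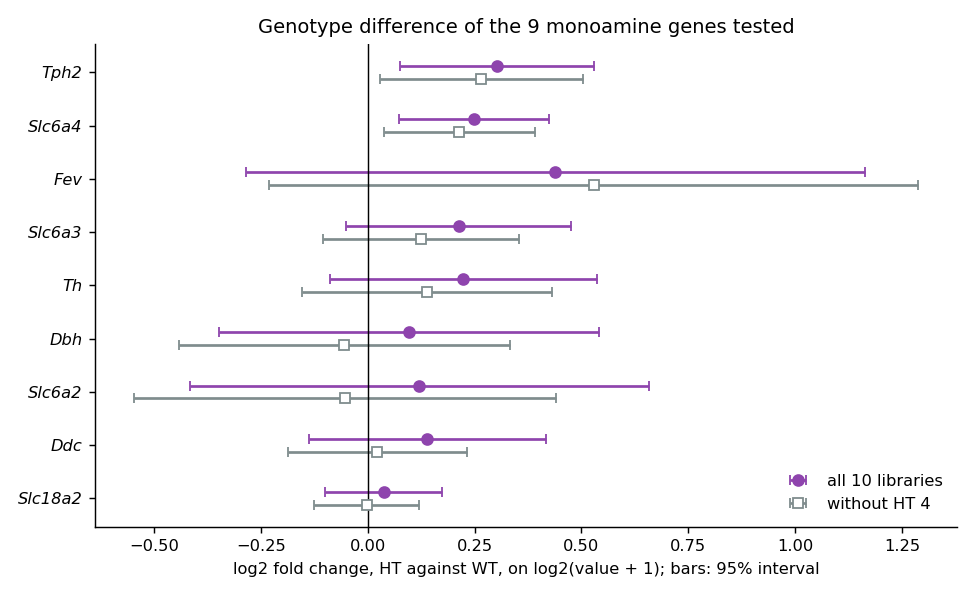
Log2 fold change of HT against WT (horizontal axis, on log2(value + 1)) with its 95% interval for the 9 monoamine genes tested, with all 10 libraries (filled circles) and without HT 4 (open squares). The intervals of *Tph2* and *Slc6a4* lie above 0 in both fits, and the estimates of *Dbh*, *Slc6a2* and *Slc18a2* move to just below 0 without HT 4.

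Taking the 9 tested genes as a list, 9 had a log2 fold change above 0, against 46.4% of all genes tested, and their median was 0.21 against -0.0074 over all genes. This direction rested in part on HT 4. Without that library 6 of the 9 were above 0, against 49.6% of all genes tested, and the median was 0.12. *Dbh* was then at -0.054, *Slc6a2* at -0.053 and *Slc18a2* at -0.0026. The genes are not independent of each other, as several are made by the same neurons.

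The genes differed in how much they varied between mice of one genotype. The within-group SD on the log2 scale was 0.086 for *Slc18a2*, 0.11 for *Slc6a4* and 0.14 for *Tph2*, below the median of 0.16 over all genes tested. It was 0.20 for *Slc6a3*, 0.22 for *Ddc* and 0.25 for *Th*. The noradrenaline genes *Dbh* (0.36) and *Slc6a2* (0.47) and the low transcription factor genes *Fev* (0.55) and *Pitx3* (0.58) varied most.

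Between pairs of genes, r was above 0 for 33 of 45 pairs, and for 25 of 45 without HT 4. The share among pairs of other genes was not calculated. With all libraries, 6 pairs had an unadjusted permutation p under 0.05. Apart from *Tph2* and *Slc6a4*, these were the noradrenaline pair *Dbh* and *Slc6a2* (r = 0.74), *Slc6a2* with *Slc18a2* (r = 0.76), and *Ddc* with *Dbh* (0.67), *Slc6a3* (0.72) and *Slc6a4* (0.60). The noradrenaline pair had a permutation p of 0.0149 for r and 0.0227 for rho (0.72), and its adjusted p for r was 0.223. Leaving out HT 4 lowered it to 0.57 and the *Slc6a2* and *Slc18a2* value to 0.60, while the 3 pairs of *Ddc* fell to between 0.26 and 0.28. None of these 5 pairs then had a permutation p under 0.05. Over all pairs the median r was 0.27, and 0.037 without HT 4. *Th* and *Slc6a2*, both made by noradrenaline neurons, had r = -0.13 with all libraries and -0.77 without HT 4 (permutation p = 0.0158, not adjusted). In that reduced set *Th* also had r = -0.69 with *Slc18a2* (permutation p = 0.0468, not adjusted) and -0.57 with *Dbh*. Its r was above 0 with *Ddc* (0.15), *Slc6a3* (0.15), *Tph2* (0.20), *Slc6a4* (0.44), *Fev* (0.040) and *Pitx3* (0.31).

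Per kilobase of transcript, the vesicular transporter was the most abundant of the 10 genes. The mean level over the 10 libraries was 191 ± 11.3 normalised counts per kb for *Slc18a2*, 126 ± 21.5 for *Ddc*, 118 ± 13.9 for *Slc6a4* and 93.3 ± 17.6 for *Th* (SD, n = 10). It was 68.2 ± 11.1 for *Slc6a3*, 61.1 ± 8.99 for *Tph2*, 37.2 ± 11.6 for *Slc6a2* and 34.2 ± 8.84 for *Dbh*. The identity factors were lowest, with 14.1 ± 5.10 for *Fev* and 7.62 ± 3.25 for *Pitx3*. Neighbours in this order overlapped in their ranges, except that the lowest *Dbh* library (25.5) was above the highest *Fev* library (22.8). The serotonin transporter was thus above the serotonin enzyme per length in each library, at 103 to 141 against 48.8 to 76.0 per kb. The order was the same with the longest transcript of each gene in place of the median length.

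**Figure D4:**
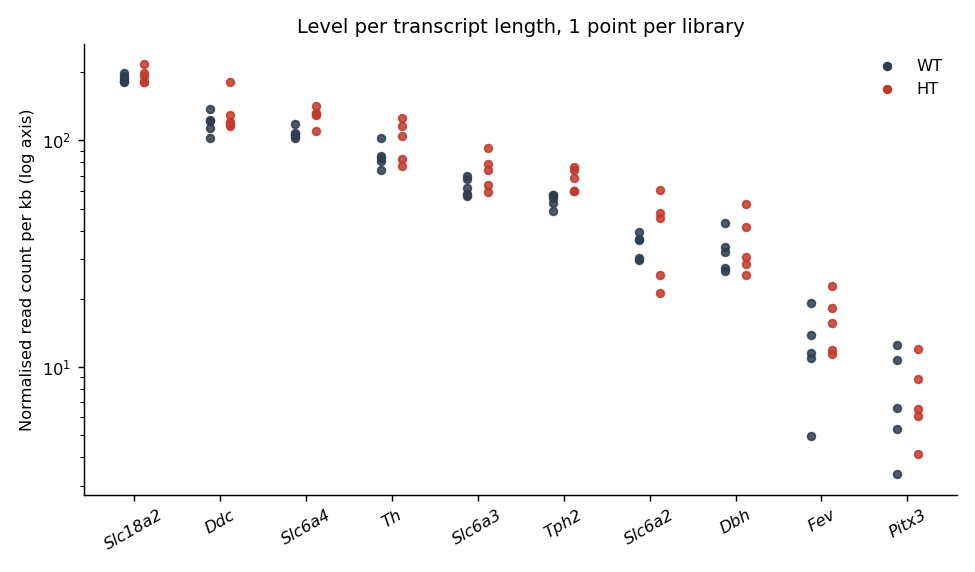
Level of each monoamine gene in normalised read counts per kb of transcript (log axis), 1 point per library (WT dark, HT red), ordered by the mean. The genes run from about 180 to 216 per kb for *Slc18a2* to 3.36 to 12.5 per kb for *Pitx3*, and most neighbours share part of their range.

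The wider monoamine pathway was described with 9 lists holding 71 other genes, of which 62 were measured well enough to test. Of these, 42 were higher in HT (46.4% of all genes tested were), and without HT 4 the number was 37 (49.6% of all genes tested). With all libraries, 4 had an unadjusted limma p under 0.05 and were higher, 2 had such a p and were lower (1.47% and 1.93% of all genes tested), and 0 passed the adjusted threshold. Among regulators, 7 of 9 serotonergic identity genes were higher (median log2 fold change 0.14, and 7 of 9 with a median of 0.071 without HT 4). *Gata3*, a zinc finger factor of serotonergic and other hindbrain neurons that is also in the noradrenergic list, had 297 ± 61.9 in HT and 212 ± 41.4 in WT (log2 fold change 0.48 ± 0.16, SE; limma p = 0.0105, exact permutation p = 0.0476). Without HT 4 its log2 fold change was 0.39, with a limma p of 0.0226. *Gata3* overlapped between groups, with 3 HT libraries above every WT library. In the dopaminergic list 6 of 10 were higher (median 0.082, and 5 of 10 with a median of -0.029 without HT 4) and none had an unadjusted p under 0.05, the smallest being that of *Ret*, the receptor subunit for GDNF (0.15 ± 0.090, SE; exact permutation p = 0.159). In the noradrenergic list 4 of 6 were higher.

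Of the serotonin receptors, 8 of 12 were higher in HT (median 0.075), against 46.4% of all genes tested. Without HT 4 it was 10 of 12 (median 0.15), against 49.6%. An unadjusted p under 0.05 was found for 3, of which 2 were higher and 1 lower (1.47% and 1.93% of all genes tested). *Htr6*, a Gs-coupled receptor, had 69.5 to 99.7 in HT and 59.2 to 66.3 in WT, without overlap (log2 fold change 0.31 ± 0.13, SE; exact permutation p = 0.00794). *Htr7*, also Gs-coupled, had 523 to 719.6 in HT and 469 to 574 in WT (0.23 ± 0.090, SE; exact permutation p = 0.0476). *Htr3a*, the subunit of the ion channel receptor found in a class of cortical interneurons, had 82.3 to 96.3 in HT and 102 to 143 in WT, also without overlap but lower in HT (-0.31 ± 0.13, SE; exact permutation p = 0.00794). Among all genes tested, a separation with HT above WT was found for 0.282% and one with HT below WT for 0.347%. All 3 kept their direction without HT 4, where unadjusted limma p values were 0.0528 for *Htr6*, 0.0535 for *Htr7* and 0.0486 for *Htr3a*.

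In the breakdown and uptake list 6 of 8 were higher (median 0.039, and 5 of 8 with a median of 0.030 without HT 4). For this and each list below, the share over all genes tested was 46.4%, and 49.6% without HT 4. *Slc22a2*, a low-affinity organic cation transporter, had 18.6 to 24.2 in HT and 10.1 to 16.03 in WT, without overlap, as for 0.282% of all genes tested (log2 fold change 0.65 ± 0.22, SE; exact permutation p = 0.00794). *Maoa* and *Maob*, the monoamine oxidases, had log2 fold changes of 0.034 and -0.037. For the tetrahydrobiopterin cofactor of both hydroxylases 6 of 8 genes were higher (median 0.074, and 3 of 8 with a median of -0.0078 without HT 4), and none had an unadjusted p under 0.05. *Adrb3*, a beta-adrenergic receptor, had low counts of 4.99 to 15.1 in HT and 13.1 to 30.5 in WT. It was the adrenergic receptor with an unadjusted limma p under 0.05 (log2 fold change -0.92 ± 0.33, SE, exact permutation p = 0.0317). Among all genes tested 1.93% had such a p and were lower. Of the 9 receptors of the adrenergic list 5 were higher (median 0.012, and 4 of 9 with a median of -0.034 without HT 4). The 3 dopamine receptors tested were all higher (2 of 3 without HT 4), with *Drd5* at 0.21 ± 0.18 (SE; exact permutation p = 0.238). Of the other synthesis genes 1 of 3 was higher, and *Pnmt*, which makes adrenaline, was at -0.19 ± 0.29 (SE; exact permutation p = 0.429).

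**Figure D5:**
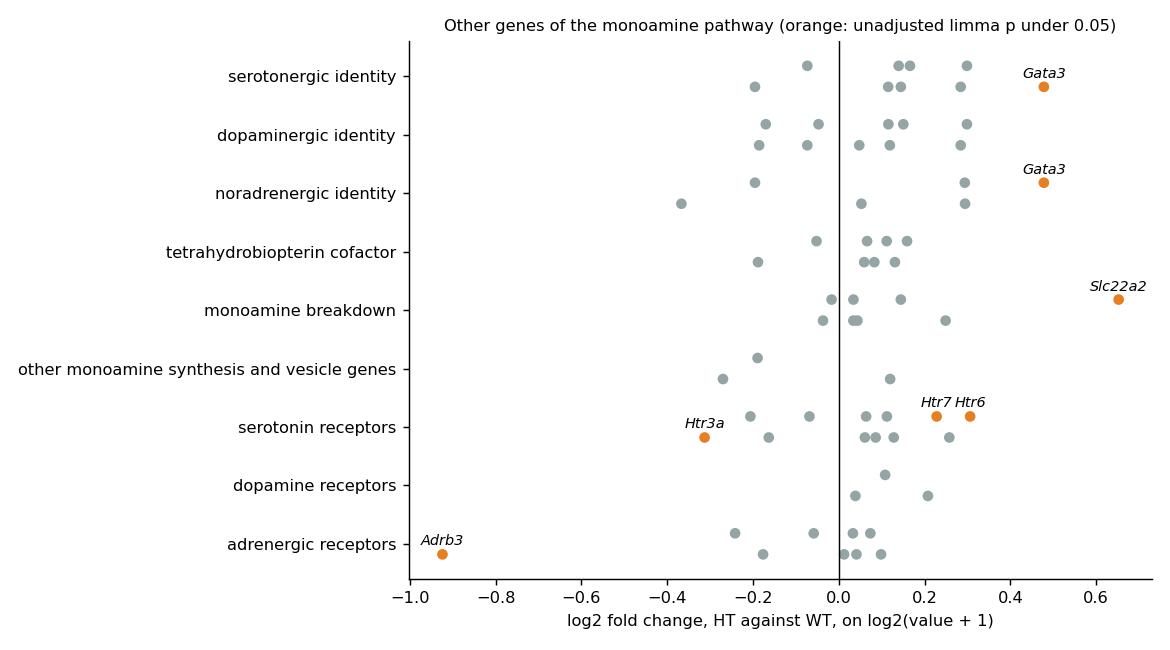
Log2 fold change of HT against WT (horizontal axis, on log2(value + 1)) for the 62 other genes of the monoamine pathway tested, 1 point per gene in rows by list; a gene in 2 lists appears in both. Orange points have an unadjusted limma p under 0.05, with *Gata3*, *Slc22a2*, *Htr6* and *Htr7* to the right of 0 and *Htr3a* and *Adrb3* to the left.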

How the data were processed

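Libraries were made from whole-brain RNA with a stranded poly-A kit, 1 library per mouse. Per the labels, the authors used Salmon 1.1.0, R 4.1.1 and DESeq2 1.30.1 with the GRCm38 genome. The deposited table gives a signal value per gene and library, the Salmon read estimate divided by the DESeq2 size factor of the authors. These are not whole counts, so a log-scale test was used. Their annotation release and low-count filter were not given in the sources used here. Symbols and positions came from GENCODE M21 (18431 of 18444 genes matched).

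The test was limma 3.58.1 in R 4.3.3 on log2(value + 1) (trend, robust, two-sided, no covariate) for the 17020 genes with a mean of at least 10, with Benjamini-Hochberg adjustment and a threshold of 0.05. Fold changes on this scale understate changes of low genes. Single genes had an exact permutation test over 252 assignments, and pairs of genes a permutation test with 100000 resamples. The fit was tested on simulated data. The spread between mice sets the precision, and counting error was not modelled.

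The 10 genes and the lists were chosen with earlier results of these data known. Named were the 10 genes, *Arid1b*, in each list the genes with an unadjusted p under 0.05 or else the smallest p, and for each gene the 3 genes most like it. The result of 1 gene under this rule is not reported here. *Maoa* and *Maob* were named after their values were seen. The meninges list and 2 covariate fits (*Hox* and meninges levels) were added after the data were seen.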

Additional observations from a re-analysis of the deposited data

Results flagged for a closer look

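In 22 groups of 5 libraries (11 genes in 2 genotypes), 2 held a library far from the other 4, where chance gives about 1.1. Both were HT 4, the library that stood apart in the whole table. For *Ddc* in HT, the gap between HT 4 (351) and the next library took 0.798 of the range, above the critical ratio of 0.71. For *Arid1b* in HT, HT 4 (1505) was the lowest and its gap took 0.735 of the range. Without HT 4 the log2 fold change of *Ddc* was 0.023 and that of *Arid1b* -0.57.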

How the results depend on the processing

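Of the 24 alternative fits, those with HT 4 left out or given a low weight changed the direction of 3 genes. The count of genes past an adjusted p of 0.05 was 0 with all libraries, 0 to 2 with 1 library left out, 2 with sample weights, 1 with the length and GC trend removed and 2 with that trend removed and HT 4 left out. *Dbh*, *Slc6a2* and *Slc18a2* changed direction without HT 4 (log2 fold changes of -0.054, -0.053 and -0.0026) and with the trend removed and HT 4 left out (-0.033, -0.074 and -0.014), and *Dbh* and *Slc6a2* did so with sample weights (-0.089 and -0.047). With 1 library left out their log2 fold changes ran from -0.054 to 0.20, -0.053 to 0.32 and -0.0026 to 0.063. Of the 9 monoamine genes, 6 to 9 were higher in HT with 1 library left out. Their median log2 fold change was 0.12 to 0.24, and 2 to 3 had an unadjusted p under 0.05. Same-numbered libraries deviated together only weakly (r of 0.091, 0.084, 0.082, -0.10 and 0.093), so the numbers were not taken as pairs. With the replicate block 0 genes passed the threshold and *Tph2* and *Slc6a4* had limma p values of 0.0203 and 0.0304. With the meninges level as a covariate *Dbh* and *Slc6a2* were at 0.30 and 0.33, against 0.096 and 0.12. With a minimum mean of 100, *Dbh* and *Fev* had no value, and *Pitx3* had one only without a filter. The depth limits what can be said of *Fev* and *Pitx3*, with means of 17.0 and 6.50 normalised counts.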

Other observations

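The lists kept as checks on dissection and on other sources of monoamine transcripts also held genes with an unadjusted limma p under 0.05, and none passed the adjusted threshold. Among all genes tested 46.4% were higher in HT, and 49.6% without HT 4. In the hypothalamic list 7 of 8 tested genes were higher in HT (median log2 fold change 0.32), and 7 of 8 without HT 4 (median 0.25). Of the 8, 3 had an unadjusted limma p under 0.05 and were higher, against 1.47% of all genes tested. The neuropeptide gene *Npy* had 1259 ± 102 in HT and 1076 ± 119 in WT (n = 5 each), and *Gal*, the galanin gene, had 91.6 ± 22.0 and 67.8 ± 6.83. *Nr5a1*, a factor of the ventromedial hypothalamus, was low at 15.4 ± 4.49 and 7.93 ± 5.00. The groups overlapped for all 3, and the summed level of the list was 1510.1 to 1804 in HT and 1267 to 2269 in WT.

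*Trh* of the olfactory bulb list had 133 to 163 in HT and 108 to 138 in WT, while 3 of the 10 genes of that list were higher. *Pou4f1*, a factor of sensory ganglia and habenula, had 172 to 302 in HT and 149 to 208 in WT, and 5 of 6 genes of the peripheral ganglia list were higher (median 0.060), but 2 of 6 without HT 4 (median -0.011). Of the *Hox* list 10 of 12 genes were higher (46.4% of all genes tested were), and 9 of 12 without HT 4. None had an unadjusted p under 0.05, and the smallest was that of *Hoxa2* (log2 fold change 0.76 ± 0.46, SE). The meninges list had 6 of 12 higher, with *Aldh1a2* at 0.18 ± 0.080 (SE), and its summed level was 14441 to 23941 in HT and 15124 to 42150.0 in WT.

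*Tph1*, the pineal and gut enzyme, had 12.9 to 84.9 in HT and 17.1 to 72.1 in WT, and 3 of the 6 pineal genes were in the table. Of the mast cell list 5 of 8 genes were in the table, with a summed level of 87.4 to 158 in HT and 96.8 to 140.0 in WT (*Cpa3* at -0.43 ± 0.39, SE). Of the platelet list 4 of 8 were in the table, with 449 to 913 in HT and 499.7 to 798 in WT (*Gp5* at 0.40 ± 0.35, SE).

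Across the 10 libraries, the genes most like the other monoamine genes were *Glrx*, *Vapa* and *Nxph3* for *Th* (r = 0.95, 0.94 and 0.94), *Uqcrfs1*, *Dhps* and *Cgref1* for *Ddc* (0.97, 0.97 and 0.96) and *Fbxl12os*, *Gm4675* and *Abhd1* for *Dbh* (0.93, 0.90 and 0.90). They were *Uap1l1*, *Sertad3* and *Clec14a* for *Slc6a2* (0.91, 0.89 and 0.88), *Mxra7*, *Lrch1* and *Lypd2* for *Slc6a3* (0.95, 0.91 and 0.91) and *Opn3*, *Nadk2* and *Paqr7* for *Slc18a2* (0.95, 0.92 and 0.92). For *Fev* they were *Cspg4*, *Tmem88b* and *Wars* (0.88, 0.87 and 0.87) and for *Pitx3* *Isg15*, *Dcaf4* and *Igsf9* (0.93, 0.90 and 0.87). These values describe 10 libraries that share dissection and normalisation.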
